A study of Mus musculus with 6 samples.

Results

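The genes described here are 10 that are often seen together in effector-type and migrating lymphocytes: the S100 genes S100a4, S100a6, S100a10, S100a11 and S100a13, the annexin genes Anxa1 and Anxa2, the intermediate filament gene Vim, the galectin gene Lgals1 and the small LIM-domain gene Crip1. They were taken by name from a table of 26332 genes, all 10 were found there, and all 10 passed the filter on low counts that left 13294 genes. They were chosen by how their counts differed between knockout and wild-type libraries in earlier results of these data, so that difference is given here as a description, without a test. The libraries came from thymocytes of single C57BL/6 mice, 2 of them Tcf7 knockouts (KO) and 4 wild type (WT). Tcf7 encodes TCF-1, a transcription factor of early T cells. The sort for the double negative 3 (DN3) stage kept CD25-positive cells that lacked CD44, CD8 and the T-cell receptor (TCRβ and CD3) and did not stain for NK1.1 or with a CD1d tetramer. KO 1 and WT 4 were male, and KO 2 and WT 1, 2 and 3 were female. The labels give neither the age of the mice nor the part of Tcf7 that was removed, and 2 mice are all that stand for the knockout.

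S100 proteins are small calcium-binding proteins that change shape with calcium and then bind targets such as myosin and annexins. Annexins bind acidic phospholipids in a calcium-dependent way, and the pairing of annexin A2 with the S100a10 protein links membranes to cortical actin. Vimentin forms the intermediate filaments of lymphocytes and mesenchymal cells, and galectin 1 is a secreted lectin that binds sugars on T-cell surface proteins. In T cells, transcripts of this group are typically low in resting cells and higher in effector and memory cells.

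Total counts were 19589938 in KO 1 and 13673860 in KO 2, against 23711513 to 41666797 in the WT libraries. Tcf7 itself stood at 1133 and 1022 CPM (counts scaled to library size) in KO 1 and KO 2, against 2094 to 2326 CPM in WT, so its transcripts were reduced but present under the KO label (log2 -1.05, SE 0.086, adjusted p = 0.00127 in edgeR). All 12 DN3 marker genes were detected in every library, with a summed level of 9147 and 9144 CPM in KO 1 and KO 2 and 10784 to 11565 CPM in WT, and 2 were called higher and 5 lower (adjusted p under 0.05 in the quasi-likelihood test of edgeR, which called 30.7% of all genes). KO 1 and KO 2, which differ in sex, stood further apart than any pair of WT mice, with a chi-square per degree of freedom of 104. In WT it was 15.9 to 23.1 for the pairs of the male WT 4 with a female, and 3.37 to 5.11 between females. The summed level of B-cell markers was above the WT range in both KO mice, most so in KO 2, and the values are given below. The share of counts from mitochondrial genes was 0.893% in KO 1, 1.78% in KO 2 and 2.61 to 2.92% in WT, and its part in any difference below was not tested.

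Promoter windows of 4 of the genes are shown first, since they carry the sequence features compared among the 10. Each runs from 250 bases before to 50 after the annotated start (RefSeq, GRCm38.p6, 5′ to 3′ on the strand of the gene). The windows of S100a4 and Vim are shown for the large differences of these genes, and those of Anxa2 and S100a11 because they alone held an AP-1 motif. Capitals mark matches on either strand to any of 4 motifs. These are the TATA box, the core of the TCF/LEF motif that TCF-1 binds, a CACC box, the kind of site that KLF factors bind, and the AP-1 motif, and their letters are given with their counts below. The S100a4 window is chr3:90603520-90603819, the Vim window chr2:13574061-13574360, the Anxa2 window chr9:69453433-69453732 and the S100a11 window chr3:93520246-93520545, all on the plus strand.
S100a4: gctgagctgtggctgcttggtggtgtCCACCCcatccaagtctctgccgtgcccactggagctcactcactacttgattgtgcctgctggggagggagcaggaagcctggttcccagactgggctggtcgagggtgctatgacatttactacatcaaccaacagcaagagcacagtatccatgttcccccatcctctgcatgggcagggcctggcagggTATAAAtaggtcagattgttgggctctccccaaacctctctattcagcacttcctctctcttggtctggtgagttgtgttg
Vim: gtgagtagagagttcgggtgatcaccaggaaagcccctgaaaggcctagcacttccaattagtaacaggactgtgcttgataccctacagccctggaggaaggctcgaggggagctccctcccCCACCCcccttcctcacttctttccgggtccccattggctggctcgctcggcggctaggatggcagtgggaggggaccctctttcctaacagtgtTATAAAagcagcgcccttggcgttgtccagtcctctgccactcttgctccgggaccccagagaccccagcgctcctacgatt
Anxa2: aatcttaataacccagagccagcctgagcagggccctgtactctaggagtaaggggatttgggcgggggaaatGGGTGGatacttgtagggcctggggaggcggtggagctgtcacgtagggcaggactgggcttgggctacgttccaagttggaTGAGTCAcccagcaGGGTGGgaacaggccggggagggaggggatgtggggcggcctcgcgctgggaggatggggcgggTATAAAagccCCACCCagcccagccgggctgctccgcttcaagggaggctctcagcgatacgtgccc
S100a11: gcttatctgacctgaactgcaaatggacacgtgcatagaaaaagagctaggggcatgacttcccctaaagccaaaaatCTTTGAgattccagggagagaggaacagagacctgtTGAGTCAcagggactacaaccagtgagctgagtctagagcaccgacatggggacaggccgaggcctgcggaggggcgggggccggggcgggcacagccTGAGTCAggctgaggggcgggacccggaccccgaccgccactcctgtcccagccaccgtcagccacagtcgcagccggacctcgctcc

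S100a4 and Vim both carried a TATA box (searched as TATAAA), which began 31 bases before the start in S100a4 and 32 in Vim. Windows were found for 8 of the 10 genes. A TATA box was in 4 of these 8 (S100a4, Vim, Anxa1 and Anxa2) and in 13.6% of 32851 mouse windows of the same length. The TCF/LEF core (searched as CTTTGA) was in 1 of 8 (S100a11, 172 bases before the start) and in 5257 of the 32851 windows. The CACC box (searched as CCACCC) was in 5 of 8, against 31.5% of all windows, and the AP-1 motif (searched as TGANTCA) in 2 of 8 (Anxa2 and S100a11), against 7.81%. The motifs did not overlap one another in these windows, and the S100a6 window held none of the 4. CpG counts were 2 in the S100a4 window, 3 for Anxa1 and 6 for S100a6, against 11 to 18 in the other 5 windows and a median of 7 over all windows. The 3 genes with the fewest CpGs were also the 3 with the lowest WT levels among the 10. These matches are a description of letters in a window and not of binding.

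Read per length, the 10 genes covered a wide range of levels in WT cells. Crip1 was highest at 1371 ± 52.9 RPKM (RPKM, the CPM per kilobase of gene length; SD, n = 4), followed by Anxa2 at 214 ± 5.58, Lgals1 at 185 ± 11.8 and S100a10 at 61.8 ± 3.29 RPKM. S100a11 was at 29.9 ± 1.60, Vim at 25.6 ± 1.01 and S100a13 at 19.0 ± 1.28 RPKM. Anxa1 (0.473 ± 0.218), S100a6 (0.361 ± 0.165) and S100a4 (0.136 ± 0.0837) were at the lower end, where the ranges of Anxa1 and S100a6, and of S100a6 and S100a4, overlapped. The ranges of all other neighbours in this order were apart. In KO 1 and KO 2 the mean order was Crip1 (1572), Anxa2 (327), Lgals1 (282), Vim (169), S100a10 (161), S100a4 (63.5), S100a11 (43.1), S100a13 (38.1), S100a6 (16.2) and Anxa1 (0.588 RPKM). Vim thus stood above S100a10 in the KO mean and below it in the WT mean, although the 2 KO values of S100a10 (114 and 208 RPKM) enclosed those of Vim (194 and 144 RPKM). Together the 10 genes took 0.204% of the scaled counts in KO 1 and 0.173% in KO 2, against 0.113 to 0.119% in WT.

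**Figure D1:**
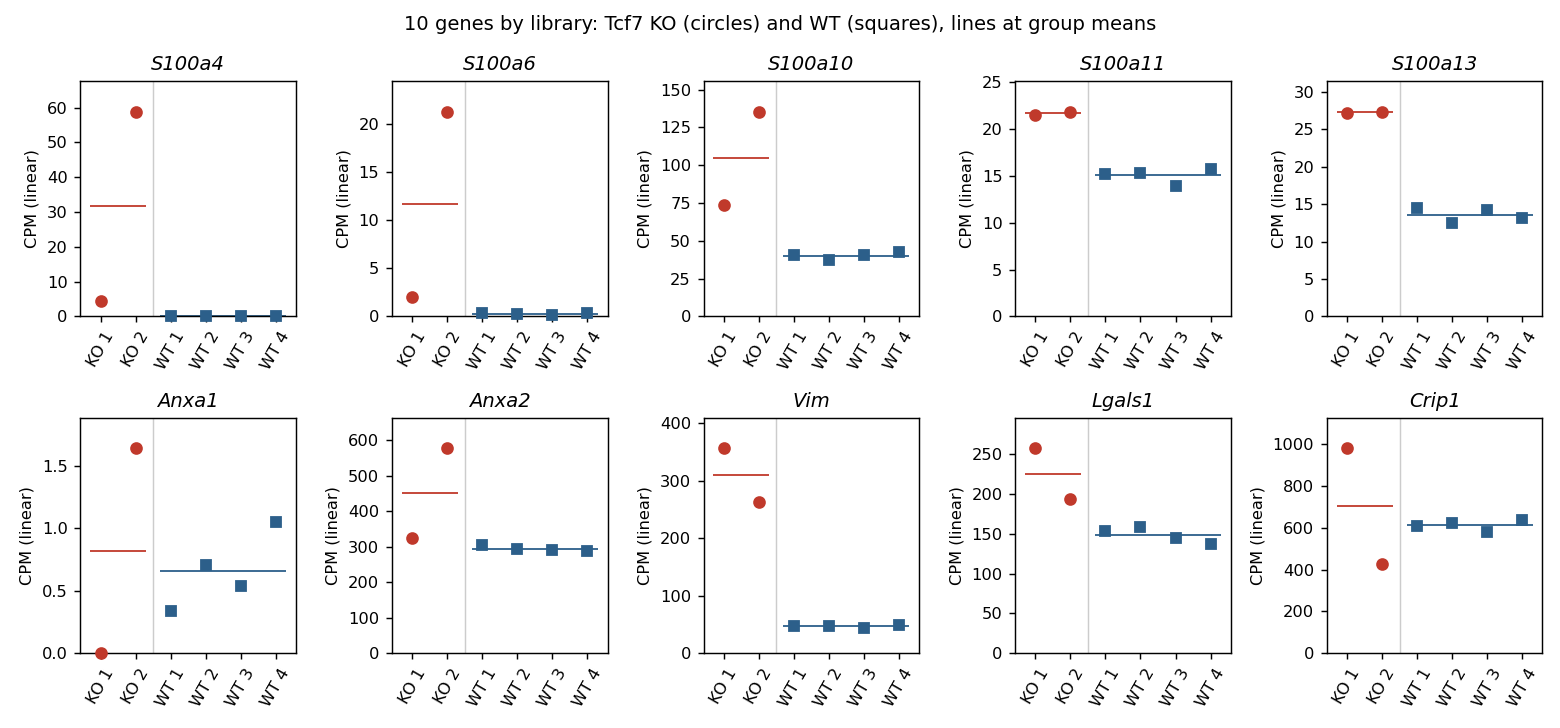
Level of each of the 10 genes (CPM, linear axis from 0) in every library, KO 1 and KO 2 as circles and WT 1 to 4 as squares, with a line at each group mean. In 8 genes both KO libraries lie above all WT libraries, while KO 1 and KO 2 lie on opposite sides of the WT range in Anxa1 and Crip1.

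In 8 of the 10 genes both KO libraries lay above the whole WT range, and in the other 2 (Anxa1 and Crip1) the KO mice lay on opposite sides of it. Over all 13294 genes, both KO libraries lay above the WT range in 22.9% and below it in 28.6%, or outside it on either side in 51.5%. Because the genes were chosen by this contrast, nothing is read from that count. S100a4 and S100a6 passed the filter on low counts through the KO libraries alone. The median log2 difference, KO over WT, was 0.84 over the 10 genes and -0.04 over all genes tested. In bulk RNA, a change in the number of cells of one kind cannot be told apart from a change in RNA per cell.

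S100a4 (Entrez 20198, chromosome 3, 90603770 to 90606045), which in its calcium-bound form binds the non-muscle myosin heavy chain, was close to silent in WT. It had 89 counts in KO 1 and 788 in KO 2, and 3, 3, 1 and 1 counts in WT 1 to 4. As CPM these were 4.55 and 58.8 in KO 1 and KO 2, against 0.0724, 0.125, 0.0383 and 0.0351 in WT 1 to 4. Both KO mice were far above every WT mouse, and KO 2 was 12.9-fold above KO 1. By pooled counts the ratio to WT was 68.3 in KO 1 (exact 95% interval 33.2 to 163) and 881 in KO 2 (445 to 2049), intervals that cover counting error only. The fitted log2 difference was 9.22 (SE 0.393) and rests on 8 WT counts in all.

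S100a6 (Entrez 20200, chromosome 3, 90612894 to 90614414), the gene of calcyclin, lies next but 1 to S100a4 and had the same order of libraries. Its counts were 40 in KO 1 and 285 in KO 2, and 15, 5, 3 and 10 in WT 1 to 4, or 2.05 and 21.3 CPM in KO 1 and KO 2 against 0.115 to 0.362 CPM in WT. KO 2 was 10.4-fold above KO 1, and both were above all WT libraries. The pooled ratio to WT was 7.44 in KO 1 (exact 95% interval 4.57 to 12.2) and 77.3 in KO 2 (53.8 to 114). The fitted log2 difference was 5.26 (SE 0.869), and with KO 2 left out it was 2.51.

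S100a10 (Entrez 20194, chromosome 3, 93555117 to 93564645), whose protein binds annexin A2 and differs from other S100 proteins in not needing calcium, had 73.9 CPM in KO 1 and 135 CPM in KO 2, against 40.5, 37.3, 40.3 and 42.5 CPM in WT 1 to 4. Both KO values were above the WT range, with KO 2 again the higher (log2 difference 1.41, SE 0.210). Anxa2, the partner gene (Entrez 12306, chromosome 9, 69453683 to 69491792), had 323 CPM in KO 1 and 576 CPM in KO 2, against 304, 294, 289.9 and 287 CPM in WT. KO 1 was thus just above the highest WT library, and most of the difference (log2 0.66, SE 0.171) lay in KO 2. Without KO 2 the log2 difference of Anxa2 was 0.16, and that of S100a10 was 0.79.

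S100a13 and S100a11 differed between genotypes by nearly the same amount in both KO mice. S100a13 (Entrez 20196, chromosome 3, 90514233 to 90524581), whose protein takes part in the export of secreted proteins that lack a signal peptide, had 27.2 CPM in KO 1 and 27.3 CPM in KO 2, against 14.5, 12.5, 14.2 and 13.1 CPM in WT (log2 difference 1.01, SE 0.119). S100a11 (Entrez 20195, chromosome 3, 93520496 to 93526288), which encodes a binding partner of annexin A1, had 21.5 CPM in KO 1 and 21.9 CPM in KO 2, against 15.2, 15.4, 13.9 and 15.8 CPM in WT (log2 0.52, SE 0.116). Neither gene's groups overlapped. The processed pseudogenes Gm12854 and Gm7665 match S100a11 transcripts at 99.0% and 98.7% over 297 bases, so reads of S100a11 may be shared or lost, and its level is less certain.

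Anxa1, the gene of a ligand of formyl peptide receptors (Entrez 16952, chromosome 19, 20373434 to 20390671), was barely detected. It had 0 counts in KO 1 and 22 in KO 2, and 14, 17, 14 and 30 in WT 1 to 4. In CPM KO 2 was at 1.64 and WT at 0.338 to 1.05, while 0 counts in KO 1 allow a level of up to 0.154 CPM (3 counts). The KO mice were thus on opposite sides of the WT range, and no common direction can be given (log2 0.15, SE 1.33).

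Vim (Entrez 22352, chromosome 2, 13574311 to 13582826) had the most precise of the larger differences. Its level was 356 CPM in KO 1 and 263 CPM in KO 2, against 47.1, 47.1, 44.5 and 49.0 CPM in WT 1 to 4. Both KO mice were more than 5 times the highest WT mouse, at 7.59 and 5.61 times the WT mean, and here KO 1 was the higher. The log2 difference was 2.65 (SE 0.0962) and lay between 2.51 and 2.86 over 15 alternatives.

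Lgals1 (Entrez 16852, chromosome 15, 78926725 to 78930465), the gene of galectin 1, had 257 CPM in KO 1 and 194 CPM in KO 2, against 153, 158, 144 and 137 CPM in WT. Both KO values were above the WT range, KO 1 more so (log2 difference 0.58, SE 0.138). Crip1 (Entrez 12925, chromosome 12, 113152012 to 113153879) was at 979 CPM in KO 1 and 427 CPM in KO 2, against 610.0, 623, 582 and 637 CPM in WT. KO 1 was above and KO 2 below all WT libraries, so that the fitted log2 difference of -0.03 (SE 0.260) averages 2 mice that differed 2.30-fold.

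**Figure D2:**
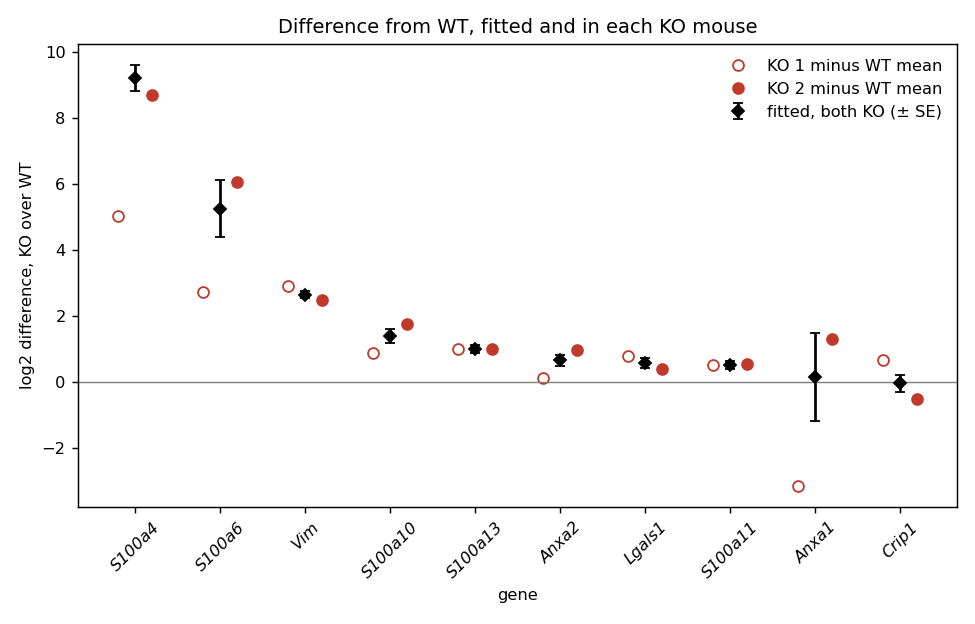
Log2 difference from WT for each gene, as fitted for both KO mice (diamonds, ± SE) and for KO 1 (open circles) and KO 2 (filled circles) against the WT mean. The single-mouse values use a prior count of 2, which pulls in low genes, so for S100a4 both lie under the fitted 9.22. S100a11 and S100a13 agree between the KO mice, S100a4, S100a6, S100a10 and Anxa2 are higher in KO 2, and Vim, Lgals1 and Crip1 are higher in KO 1.

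The 10 genes thus fell into groups by the order of the KO mice. The gap between KO 1 and KO 2 on the log2 scale was 3.67 for S100a4, 3.33 for S100a6, 4.45 for Anxa1, 0.87 for S100a10 and 0.83 for Anxa2, all with KO 2 the higher. It was 1.20 for Crip1, 0.43 for Vim and 0.41 for Lgals1, with KO 1 the higher, and only 0.021 for S100a11 and 0.0075 for S100a13. The median gap over all tested genes was 0.47. The difference of the genotype effect between males (KO 1 and WT 4) and females (KO 2 and WT 1 to 3), which the choice of genes did not use, passed the interaction test in edgeR for 7 of the 10 genes. That share reads against 54.7% of all genes called, and with 1 KO mouse of each sex, sex cannot be told apart from any other difference between the KO mice. S100a4 (adjusted p = 0.27), S100a11 (0.648) and S100a13 (0.788) did not pass. S100a4 and S100a6 were kept by the filter on low counts through the KO libraries alone, so their outcomes here are not read as tests.

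Marker genes of B cells, dendritic cells and later T cells were also read. Their calls stand beside 14.1% of all genes called higher and 16.5% called lower in edgeR. The 12 B-cell markers summed to 544 CPM in KO 1 and 1130 CPM in KO 2, against 237 to 266 CPM in WT, and 6 of the 8 tested were called higher, 4 with weights per genotype in limma-voom. Most of each sum was Ighm alone, at 522 CPM in KO 1, 877 CPM in KO 2 and 185 to 220 CPM in WT. Ms4a1 and Pax5, which define B cells, were at 36.0 and 7.54 CPM in KO 2 and at 0 in KO 1 and in every WT library. In KO 1, 5 of the 12 were at 0 (Ebf1, Fcrla, Igkc, Ms4a1 and Pax5). Cd22 and Cd79a were at 6.29 and 3.68 CPM in KO 1, against at most 0.0351 and 0.211 CPM in WT. Cd79b was lower in KO 1 than in WT (10.8 against 42.4 to 50.8 CPM). S100a4 and S100a6 were at 4.55 and 2.05 CPM in KO 1. The 10 dendritic-cell and class II markers summed to 2.30 CPM in KO 1, 576 CPM in KO 2 and 8.78 to 12.1 CPM in WT, with 2 of the 5 tested called higher (Cd74 and H2-Aa). Both calls were lost with weights per genotype (adjusted p = 0.282 and 0.674 in limma-voom), without KO 2 and without WT 1, 2 or 3. Cd74 was at 1.94 CPM in KO 1, 359 CPM in KO 2 and 0.958 CPM on average in WT, and Siglech was at 0 in every library. The 9 double-positive and mature T-cell markers summed to 1483 and 2815 CPM in KO 1 and KO 2, against 543 to 699 CPM in WT, with 8 of 9 called higher. Among them Cd8a had 66.9 CPM in KO 1, 858 CPM in KO 2 and 2.78 CPM on average in WT. Cd4, the gene not called (adjusted p = 0.415 in edgeR), had 0 CPM in KO 1. It had 12.8 CPM in KO 2 and 0.738 to 2.61 CPM in WT. The part of these cells in the S100a4, S100a6, S100a10 and Anxa2 values of KO 2 was not tested.

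Markers of other cells that could carry S100, annexin and vimentin transcripts were also read, beside the same shares of all genes (14.1% called higher and 16.5% lower). The 16 myeloid markers summed to 10.8 CPM in KO 1, 38.7 CPM in KO 2 and 20.5 to 25.1 CPM in WT, with 2 of the 6 tested called higher and 1 lower. Cd14, Elane and Ly6g were at 0 in every library, S100a8 and S100a9 at 0.613 CPM or less, and Lyz2 at 0.154 and 1.19 CPM in KO 1 and KO 2 against 17.3 CPM in WT. Itgam, an integrin gene of myeloid cells, rose to 4.81 and 6.87 CPM in KO 1 and KO 2, against 0.492 to 0.752 CPM in WT (log2 3.33, SE 0.269, adjusted p = 0.00121 in edgeR). Ctss, a cathepsin gene, was called higher at 1.13 CPM in KO 1 and 27.2 CPM in KO 2, against 0.192 to 0.585 CPM in WT, a call lost with weights per genotype (adjusted p = 0.0743 in limma-voom), without KO 2 and without WT 1, 2 or 3. The 10 fibroblast markers summed to 2469 and 2020.0 CPM in KO 1 and KO 2, against 1395 to 1469 CPM in WT, mostly from Thy1, which thymocytes also express, and from Pdgfrb. Of the 4 tested, Thy1, Pdgfrb and Fbln1 were called higher, the call for Thy1 being lost with weights per genotype (adjusted p = 0.231 in limma-voom). Col3a1, Col6a1, Dcn, Lum and Pdgfra were at 0 in every library, and Col1a2 had 1 count in KO 2 alone. Col1a1, the other gene tested, had 5.94 CPM in KO 1, 0.448 CPM in KO 2 and 0.460 to 0.878 CPM in WT and did not pass (adjusted p = 0.316 in edgeR), while its interaction with sex did (adjusted p = 0.00103 in edgeR). The part of myeloid and fibroblast cells in the values of the 10 genes was not tested. NK and ILC markers summed to 74.4 and 126 CPM in KO 1 and KO 2 and 108 to 117 CPM in WT, with Ncr1 and Zbtb16 at 0 in both KO libraries and, of 2 tested, 1 called higher and 1 lower. Early-progenitor markers summed to 27.0 and 53.1 CPM in KO 1 and KO 2 and 85.6 to 93.4 CPM in WT, with 2 of 7 tested called higher. Sums for erythroid markers were 5.83 and 34.0 CPM in KO 1 and KO 2, against 4.39 to 15.4 CPM in WT, with 2 of 6 tested called higher, both calls being lost with weights per genotype (adjusted p = 0.228 and 0.402 in limma-voom). Thymic epithelial markers summed to 46.6 and 53.2 CPM in KO 1 and KO 2 and 149 to 161 CPM in WT, almost all from Epcam, with Foxn1 and Krt5 at 0 in every library and 2 of 3 tested called lower, 1 of them with weights per genotype. Endothelial markers summed to 138 and 134 CPM in KO 1 and KO 2 and 109.7 to 116 CPM in WT, almost all from Pecam1, with Emcn and Tie1 at 0 in every library. Of 2 tested, Pecam1 was called higher and Cdh5 lower, calls lost with weights per genotype (adjusted p = 0.364 and 0.449 in limma-voom).

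The S100 genes lie in the S100 gene cluster of chromosome 3 in 2 stretches, one with S100a13, S100a4 and S100a6 and one with S100a11 and S100a10. Within the first stretch and 100000 bases on either side, 20 genes were in the table and 8 were tested, of which 3 (S100a13, S100a4 and S100a6) had been chosen by this contrast, so that their contrast with their neighbours was fixed by the choice and is no result. S100a4 and S100a6 stand on either side of S100a5, which was at 0 in every library, and S100a3 and S100a2, on the other side of S100a4, had at most 1 count in any library. S100a1, next to S100a13 and overlapping its annotated start, had 0 CPM in KO 1, 0.0746 CPM in KO 2 and 0.125 to 0.703 CPM in WT. The other 5 tested genes (Ints3, Ilf2, Snapin, Chtop and 4930529C04Rik) were not called in edgeR, where 30.7% of all genes were, although Ilf2 had an unadjusted p of 0.0206 and was called by DESeq2 (adjusted p = 0.0127). Chtop, for example, had 317 CPM in KO 1, 319 CPM in KO 2 and 309 ± 4.56 CPM in WT (SD, n = 4). S100a8 and S100a9, the neutrophil pair, had at most 5 and 16 counts in any library. In the second stretch, S100a11 and S100a10 were the only tested genes of 5, so no neighbour could be compared with them.

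**Figure D3:**
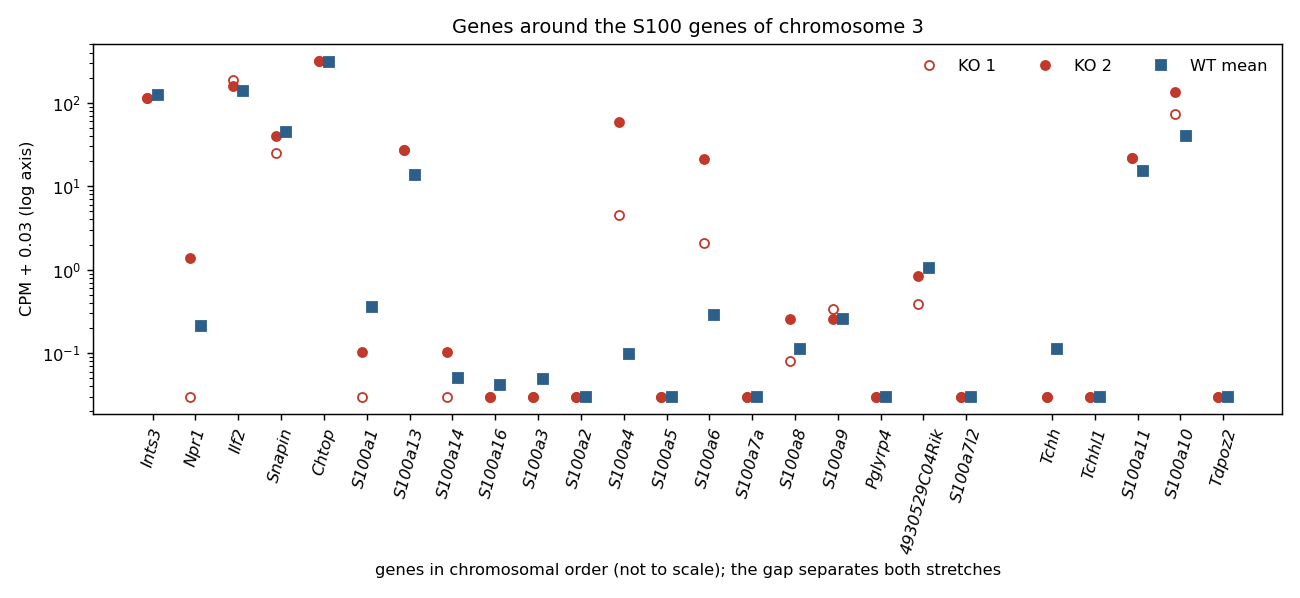
Genes in their order along chromosome 3 around both S100 stretches (not to scale), with KO 1, KO 2 and the WT mean as CPM plus an offset of 0.03 on a log axis. S100a4 and S100a6 differ widely from WT while S100a5 between them is at 0. Chtop, nearby, is at 317, 319 and 309 CPM and has the smallest difference of the tested neighbours.

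Relatives of the 10 genes came from lists of family, partner, cytoskeleton and effector genes. These lists were also chosen with earlier results of these data known, so their counts are a description and no independent result. Over the 8 lists, 92 of 133 genes were tested and 46 were called, 37 higher and 9 lower, beside 30.7% of all genes (14.1% higher and 16.5% lower). With limma-voom and weights per genotype, which allow the KO mice a wider spread, 32 of the 92 were called (28 higher, 4 lower), beside 11.3% of all genes (7.42% higher and 3.86% lower). Without WT 3 the count was 30 (beside 13.2% of all genes called), without WT 4 it was 77 (62.9%), without KO 1 it was 81 (61.9%) and without KO 2 it was 82 (68.5%). The list genes tested numbered 99 without KO 1 and 96 without KO 2, so those counts are not out of 92. Higher calls outnumbered lower ones in each of these fits, but lower calls were a larger share without KO 2 than in the main fit. The median log2 difference of the 92 in the main fit was 0.39.

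Among 10 further annexin genes, 6 were tested, of which 3 rose and 2 fell, beside 14.1% of all genes called higher and 16.5% lower. Anxa7 did not pass (64.9 and 72.2 CPM in KO 1 and KO 2, 59.8 ± 2.25 in WT). Anxa5, whose protein binds exposed phosphatidylserine, rose to 53.4 and 49.0 CPM in KO 1 and KO 2, against 13.4, 13.6, 14.4 and 13.7 CPM in WT (log2 1.88, SE 0.0943, adjusted p = 0.000324 in edgeR). Anxa6, the annexin with a doubled core, rose to 545 and 455 CPM, against 175 to 183 CPM in WT (log2 1.46, SE 0.082, adjusted p = 0.00045 in edgeR). Anxa11 rose to 185 and 103 CPM, against 59.0 to 62.7 CPM in WT (log2 1.10, adjusted p = 0.0113 in edgeR). Anxa4 fell to 6.55 and 13.7 CPM, against 25.0 to 25.8 CPM in WT, and Anxa9 fell to 0 and 0.149 CPM, against 2.05 to 2.78 CPM. Both falls were lost with weights per genotype (adjusted p = 0.0621 and 0.259 in limma-voom). Anxa5, Anxa6 and Anxa11 were higher in KO 1 than in KO 2, as was Vim, while Anxa1 and Anxa2 were higher in KO 2.

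In the list of other S100 genes, 12 of 13 were too low to test, so no S100 gene beyond the 5 described above exceeded 20 counts in any library. S100pbp, which encodes an S100-binding protein and is no S100 gene, was tested and did not pass in edgeR (38.5 and 32.2 CPM in KO 1 and KO 2, 27.3 ± 2.16 in WT, unadjusted p under 0.05, and called by DESeq2). Of 7 galectin-list genes tested, 4 rose and none fell, beside 14.1% of all genes called higher and 16.5% lower. Lgals3, the gene of a galectin of activated T cells and macrophages, rose to 10.7 and 47.8 CPM in KO 1 and KO 2, against 0 to 0.141 CPM in WT (log2 8.62, SE 0.748, adjusted p = 0.0016 in edgeR), the same order of mice as S100a4. Lgals7 rose to 13.4 and 1.94 CPM in KO 1 and KO 2, against 0.0383 to 0.167 CPM in WT, in the opposite order. Lgals3bp and Lgals9 had smaller rises (log2 0.52 and 0.35), lost with weights per genotype (adjusted p = 0.118 and 0.122 in limma-voom). None of the 3 tested CRIP and CSRP genes (Crip2, Csrp1 and Csrp2) was called in edgeR, at an unadjusted p under 0.05 or by DESeq2.

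**Figure D4:**
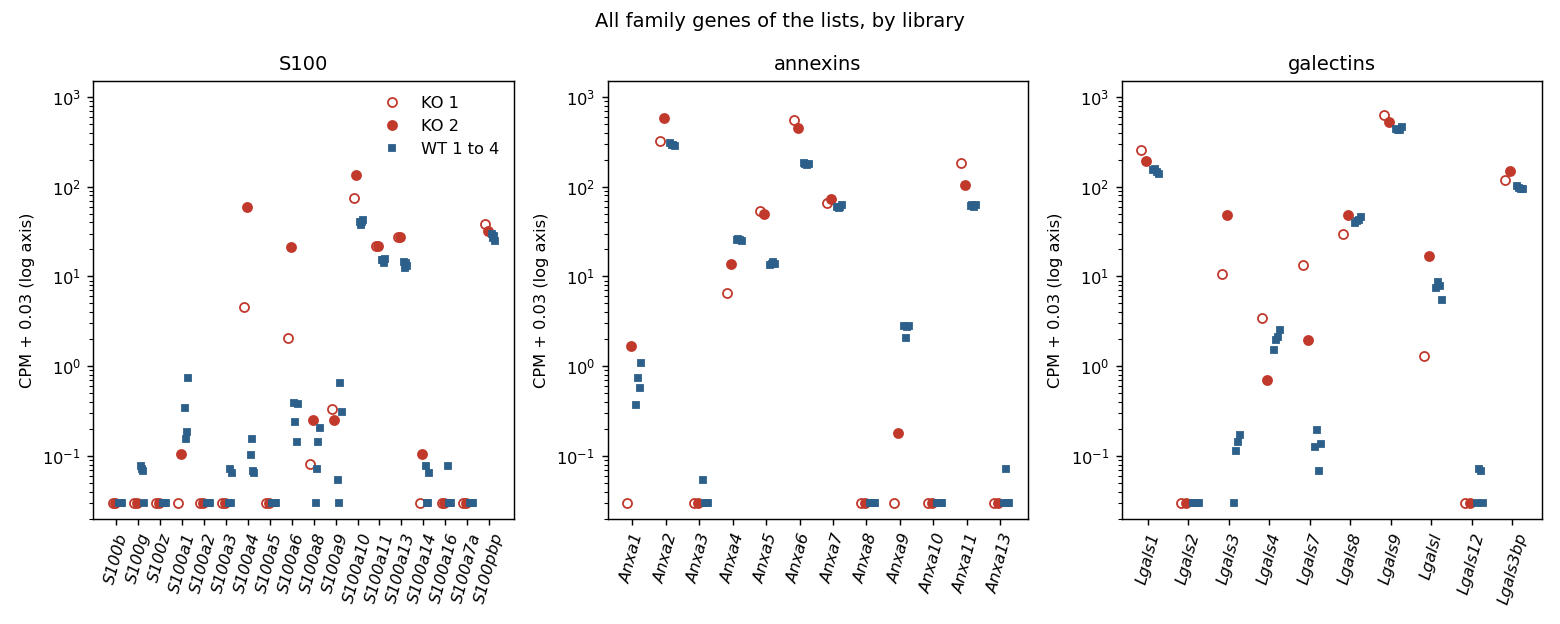
CPM plus an offset of 0.03 (log axis) for every S100, annexin and galectin gene of the lists in KO 1 (open circles), KO 2 (filled circles) and WT 1 to 4 (squares). Points on the floor of 0.03 are libraries with no count, as for S100a5, Anxa10 and Lgals2 in every library.

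Genes of binding partners gave 6 rises and 1 fall among 12 tested, beside 14.1% of all genes called higher and 16.5% lower. Ahnak, whose large protein is anchored at the membrane by the annexin A2 and S100a10 pair, rose to 13.05 and 122 CPM in KO 1 and KO 2, against 0.700, 0.836, 0.575 and 1.09 CPM in WT (log2 6.24, SE 0.792, adjusted p = 0.00498 in edgeR). All 3 genes of this trio were thus higher in KO 2 than in KO 1. Myh9, the myosin heavy chain bound by S100a4, rose to 1339 and 1126 CPM, against 769 to 846 CPM in WT (log2 0.60, SE 0.0942, adjusted p = 0.00954 in edgeR). Cacybp, named for its binding to S100a6, fell to 120 and 148 CPM, against 207 to 224 CPM in WT (log2 -0.66, SE 0.0789, adjusted p = 0.00399 in edgeR). Among T-cell surface proteins that galectin 1 can bind, Cd2 and Cd7 rose (log2 7.40 and 4.82), while Spn and Ptprc did not pass. Fpr1 and Fpr2, the receptor genes for annexin A1, were at 0 in every library.

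Of 13 intermediate filament genes and linkers, 8 were tested, and 1 rose and 1 fell, a share near the 30.7% of all genes called. Lmnb1, which encodes lamin B1 of the nuclear lamina, rose to 847 and 629 CPM in KO 1 and KO 2, against 384 to 447 CPM in WT (log2 0.78, SE 0.145, adjusted p = 0.0156 in edgeR). Its call was lost without WT 2 or WT 3 (adjusted p of at most 0.061 in edgeR with 1 library left out). Nes fell to 0 and 0.597 CPM, against 1.55 to 4.52 CPM in WT, a call lost with weights per genotype (adjusted p = 0.359 in limma-voom). Plec, a linker of vimentin filaments, did not pass (230.0 and 269 CPM in KO 1 and KO 2, 219 ± 8.52 in WT), nor did Lmna. Des, Prph and Synm were at 0 in every library. Ina, a neuronal filament gene, had 0 CPM in KO 1, 0.746 CPM in KO 2 and 1.80 to 2.32 CPM in WT and did not pass.

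Among 26 actin cytoskeleton genes, all tested, 13 rose, 1 fell and 12 did not pass, beside 14.1% of all genes called higher and 16.5% lower. Tmsb10, the gene of an actin-monomer binding thymosin, rose to 221 and 173 CPM in KO 1 and KO 2, against 19.2 to 25.2 CPM in WT (log2 3.12, SE 0.0707, adjusted p = 4.93e-05 in edgeR). Flna, an actin crosslinker, rose to 1139 and 844 CPM, against 195 to 212 CPM in WT (log2 2.24, SE 0.122, adjusted p = 0.000449 in edgeR). Msn, a linker of actin to the membrane, rose to 765 and 892 CPM, against 331 to 353 CPM in WT, and Actb to 2722 and 3815 CPM, against 1551 to 1904 CPM. Tagln2 fell to 53.0 and 124 CPM, against 179 to 204 CPM in WT (log2 -1.08, adjusted p = 0.027 in edgeR, and at most 0.0854 with a library left out). Capg and Zyx did not pass.

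Of 33 effector and memory T-cell genes tested, 12 rose, 5 fell and 16 did not pass. Over all genes 14.1% were called higher and 16.5% lower, so the falls were near the share over all genes. Gzma, a granzyme gene already expressed in WT, rose to 1333 and 1407 CPM in KO 1 and KO 2, against 188 to 247 CPM (log2 2.65, SE 0.0844, adjusted p = 0.000113 in edgeR). Itgb2, an integrin chain of leukocytes, rose to 114 and 229 CPM, against 27.8 to 34.2 CPM in WT (log2 2.53, SE 0.176, adjusted p = 0.000839 in edgeR), and Itgb7 and Il2rb also rose. Bhlhe40, Ccl4, Ifng, Itga4 and Tagln2 were the 5 that fell. The calls for Bhlhe40 and Ccl4 were lost with weights per genotype (adjusted p = 0.153 and 0.179 in limma-voom). Cd44, a marker of effector T cells that the sort excluded, stood at 0.102 and 1.42 CPM in KO 1 and KO 2 and 1.64 ± 0.288 CPM in WT and did not pass. Klrg1, Cxcr3 and Gzmk had too few counts for a test.

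The genes nearest to a member were named by the distance between profiles of log2 CPM over the 6 libraries, each centred on its own mean, among 12994 tested genes with a symbol. Nearest to S100a4 were Samhd1 (distance 0.918; 16.2 and 115 CPM in KO 1 and KO 2, 0.316 to 0.422 CPM in WT), Il6ra (1.06) and Rgma (1.16). For S100a10 they were Cytip (0.109), Scml4 (0.163) and Ppp3ca (0.200). Nearest to Vim were Cenpv (0.201; 70.3 and 50.3 CPM in KO 1 and KO 2, 8.13 to 9.20 CPM in WT), Rgs10 (0.221) and Tnk2 (0.299). For Crip1 they were 1500009L16Rik (0.113), Rcor2 (0.116) and Ccdc9 (0.131). These distances share the libraries and their depth and are a description.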

How the data were processed

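RNA of sorted thymocytes was amplified with a SMART-Seq v4 kit, which does not mark strand, and read as paired ends, per the labels' protocols. The authors deposited raw counts for each Entrez gene, with featureCounts and mm10 named in the submitters' processing notes. Neither the aligner, the tool versions nor a strand setting is given in the sources used here. All 6 single-library files held counts identical to those of the series table. The deposited gene length is in bases, per the file headers. Symbols and coordinates came from RefSeq (GRCm38.p6, the same assembly as mm10) by Entrez identifier, and 25275 of 26332 matched. Without strand, reads of overlapping antisense genes cannot be told apart: Gm16144 overlaps Anxa2 and 1500015L24Rik overlaps Anxa1, which had 0 counts in every library. Gm42674 overlaps S100a4 on the same strand.

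The test was edgeR's robust quasi-likelihood F-test (edgeR 4.0.16, R 4.3.3) with sex as a covariate, after filterByExpr at a count minimum of 10 and TMM scaling. A gene was called where its p, adjusted over all genes by Benjamini-Hochberg, was under 0.05, and the SE is the log2 difference divided by the root of F. The genotype by sex interaction was tested in a separate model. limma 3.58.1 (voom, weights per genotype) and DESeq2 1.42.0 were alternatives, as were the settings named in the closing section. CPM uses TMM-scaled library sizes, and RPKM divides it by gene length. Copies were sought with blastn 2.17.0 at 95% identity over 150 bases in GENCODE transcripts. Each library is 1 mouse, so n counts mice.

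Intervals are exact at 95%, and a count of 0 is given a limit of 3 counts; both cover counting error only. The 10 genes and the lists were chosen with earlier results of these data known. Genes named are the 10, Tcf7, marker genes, every S100 and annexin gene with at least 10 counts in a library, up to 4 called genes per list (smallest p, at least 5 CPM) and the 3 nearest genes. Other names (Myh9, Nes, Tagln2, Capg, Zyx, Lmna, Plec, Spn, Ptprc, Crip2, Csrp1, Csrp2, Bhlhe40, Ccl4, Ifng, Itga4, Klrg1, Cxcr3, Gzmk, Des, Prph, Synm, Ina, Fpr1, Fpr2) were chosen after their values were seen.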

Additional observations from a re-analysis of the deposited data

Results flagged for a closer look

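The genotype effect differed between the male pair (KO 1 and WT 4) and the female libraries (KO 2 and WT 1, 2 and 3) for 7 of the 10 genes, by edgeR's test of the interaction, which called 54.7% of all genes. Given as log2, male minus female, the difference was -3.86 for S100a6 (SE 0.812, adjusted p = 0.000135 in edgeR), -0.98 for S100a10 (SE 0.105, adjusted p = 8.86e-10 in edgeR) and -0.79 for Anxa2 (SE 0.0716, adjusted p = 1.95e-11 in edgeR). It was 0.35 for Vim (SE 0.0791, adjusted p = 0.00031 in edgeR), 0.55 for Lgals1 (SE 0.0809, adjusted p = 4.47e-07 in edgeR) and 1.12 for Crip1 (SE 0.07, adjusted p = 1.13e-15 in edgeR). For Anxa1 it was -9.45, a value that depends on the prior count because KO 1 had 0 counts. Its adjusted p was 4.49e-05 in edgeR. DESeq2 also gave an adjusted p under 0.05 for these 7. S100a6 passed the filter on low counts through the KO libraries alone, so its p is not read as a test. Each sex has 1 KO mouse, so the test rests on KO 1 and KO 2 singly and its spread comes from WT 1, 2 and 3. No WT library stood apart from the other 3 for any of the 10 genes by Dixon's test. With so few values that test has little power, so nothing is read from it.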

How the results depend on the processing

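The directions of 8 genes (S100a4, S100a6, S100a10, S100a11, S100a13, Anxa2, Vim and Lgals1) were the same in all 15 alternatives. These 8 were chosen by this contrast and had both KO libraries above the WT range. Their constant direction followed from that, and nothing is read from it. The direction of Anxa1 turned in 5 of 14 and that of Crip1 in 8 of 15. The count of 4076 genes called between KO and WT was 1500 with limma-voom and weights per genotype, 8524 in females alone and 748 with the replicate block, and 1665 (without WT 1) to 9473 (without KO 2) with 1 library left out. For the related lists the count of 46 was 81 in females alone and 17 with the replicate block, and 30 (without WT 3) to 82 (without KO 2) with 1 library left out. The median log2 difference of the 10 genes (0.84) was 1.36 in females alone and 0.81 to 1.35 with 1 library left out. Where 1 KO mouse is left out, the other is assumed to vary like WT. The cause of these shifts was not tested. Samples with the same replicate number share only the number (correlations of their deviations -0.11 and 0.0328), and the block fit leaves no sex term. The low WT counts of S100a4, S100a6 and Anxa1 limit how closely their ratios are known.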

Other observations

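Fuller values are given here for 4 of the marker genes named above. Pdgfrb, a growth factor receptor gene of mesenchymal cells, rose to 773 and 226 CPM in KO 1 and KO 2, against 61.5 to 66.5 CPM in WT (log2 2.56, SE 0.38, adjusted p = 0.00796 in edgeR). Fbln1, the gene of an extracellular matrix protein, rose to 158 and 73.7 CPM, against 2.00 to 2.59 CPM in WT (log2 5.51, SE 0.291, adjusted p = 0.000428 in edgeR). Both were higher in KO 1 than in KO 2, as was Vim. Lyz2, a lysozyme gene of myeloid cells, fell to 0.154 and 1.19 CPM, against 16.8 to 18.4 CPM in WT (log2 -4.78, SE 0.614, adjusted p = 0.00517 in edgeR). Epcam, an adhesion gene, fell to 46.1 and 52.9 CPM, against 147 to 158 CPM in WT (log2 -1.61, SE 0.0919, adjusted p = 0.000465 in edgeR). These 4 were chosen after their values were seen.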
